A study of Mus musculus with 10 samples.

Results

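Imprinted genes are transcribed mainly from the copy inherited from 1 parent, and 48 of them, named by symbol, were followed here through somatic reprogramming in mouse cells. The deposited table lists 47 of these among its 18901 genes, and all 47 passed the filter on low values that left 17075 genes for testing. Snrpn is the member that the table does not list, so its expression was not analysed here, but its promoter windows are counted below. The 47 genes lie in 19 loci. In mouse, 21 of them are known for expression from the maternal allele and 26 for expression from the paternal allele. They include 33 imprinted in most tissues and 14 in particular tissues such as placenta or brain.

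The study reprogrammed Oct4/GFP mouse embryonic fibroblasts (MEF), which carry a green fluorescent protein reporter knocked into the Oct4 locus, with retroviruses for Oct4, Sox2, Klf4 and c-Myc. It asked whether recombinant Netrin-1 (rNetrin-1), a secreted guidance molecule, alters the resulting induced pluripotent stem (iPS) cells. Poly(A) RNA of 5 lines was sequenced, with 2 libraries a line, and all lines share a background that is a cross of mf1 and 129. The lines are the MEF themselves at passages 2 and 4, a pre-iPS line that stopped part of the way to pluripotency, a 'control' line of iPS cells, and the 'rNetrin-1-derived' clones 1 and 2. All but the MEF were taken at passages 5 and 25. MEF were grown in DMEM with 10% FCS and the reprogrammed cells in KSR with LIF. For the reprogrammed cells the study's methods name either gelatin or a layer of irradiated MEF as the surface. Those methods also give KSR with LIF as used either with or without the added 2i components. In the pre-iPS line the reporter at Oct4 stays off and the viral factors stay on. Each line is 1 clone or 1 culture at a pair of passages, so the conditions are compared over 1 control line and 2 rNetrin-1-derived lines. A p-value measures the difference between lines against the spread between passages of a line.

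Parental imprints are methylation marks laid down on CpG-rich control regions in the germ line and copied at each division. They set which allele of the genes in a cluster is used, often through a long non-coding RNA transcribed from one allele. Many imprinted genes act on growth of the embryo and placenta, and in iPS cells the clusters are known as places where lines made in the same way can differ, the Dlk1-Dio3 cluster above all. The RNA values here add both alleles, so neither the allele in use nor the methylation was measured. In a bulk sample fewer cells of a type and less RNA per cell cannot be told apart.

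The promoter windows of 6 members whose values carry the comparisons are printed first, as RefSeq gives them on GRCm38.p6. Each has 250 bases before and 50 after an annotated start, 5′ to 3′ on the strand of the gene, with every CpG in capitals. Meg3, Rian and Mirg are shown because the 3 non-coding RNAs moved together between lines. Grb10 and Nnat are shown because they separated the control from the rNetrin-1-derived lines, Peg3 because its window overlaps that of Usp29 on the opposite strand and both genes were lower in pre-iPS cells.

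Meg3, chr12:109540746-109541045 (plus strand): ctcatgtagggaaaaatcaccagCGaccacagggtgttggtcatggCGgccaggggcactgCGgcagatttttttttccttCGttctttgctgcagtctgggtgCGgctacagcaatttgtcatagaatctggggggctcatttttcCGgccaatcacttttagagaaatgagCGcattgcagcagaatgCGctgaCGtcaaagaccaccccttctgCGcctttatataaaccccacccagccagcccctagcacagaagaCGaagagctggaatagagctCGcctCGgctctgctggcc

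Rian, chr12:109603695-109603994 (plus strand): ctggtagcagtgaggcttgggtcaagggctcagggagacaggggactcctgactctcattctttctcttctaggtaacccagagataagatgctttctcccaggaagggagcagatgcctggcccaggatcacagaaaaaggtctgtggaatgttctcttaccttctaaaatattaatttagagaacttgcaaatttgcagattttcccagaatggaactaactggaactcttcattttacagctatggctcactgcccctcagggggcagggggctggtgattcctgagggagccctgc

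Mirg, chr12:109734731-109735030 (plus strand): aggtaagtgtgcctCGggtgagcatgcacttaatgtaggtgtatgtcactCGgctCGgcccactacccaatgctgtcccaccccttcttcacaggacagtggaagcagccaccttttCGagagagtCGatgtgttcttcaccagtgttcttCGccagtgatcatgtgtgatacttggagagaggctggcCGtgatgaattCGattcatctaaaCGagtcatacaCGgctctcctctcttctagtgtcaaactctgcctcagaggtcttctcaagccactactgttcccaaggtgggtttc

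Grb10, chr11:12037371-12037670 (minus strand): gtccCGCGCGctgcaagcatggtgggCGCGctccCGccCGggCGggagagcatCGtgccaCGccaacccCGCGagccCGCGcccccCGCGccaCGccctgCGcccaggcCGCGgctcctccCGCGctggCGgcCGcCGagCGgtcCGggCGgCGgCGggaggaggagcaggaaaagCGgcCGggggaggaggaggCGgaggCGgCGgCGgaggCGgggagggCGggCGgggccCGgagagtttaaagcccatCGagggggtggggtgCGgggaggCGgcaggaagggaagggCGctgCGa

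Nnat, chr2:157559828-157560127 (plus strand): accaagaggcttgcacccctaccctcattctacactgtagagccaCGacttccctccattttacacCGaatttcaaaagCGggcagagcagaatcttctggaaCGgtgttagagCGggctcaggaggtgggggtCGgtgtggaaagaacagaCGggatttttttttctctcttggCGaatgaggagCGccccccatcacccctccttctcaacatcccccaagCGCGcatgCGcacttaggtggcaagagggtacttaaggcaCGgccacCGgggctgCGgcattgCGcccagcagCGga

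Peg3, chr7:6730370-6730669 (minus strand): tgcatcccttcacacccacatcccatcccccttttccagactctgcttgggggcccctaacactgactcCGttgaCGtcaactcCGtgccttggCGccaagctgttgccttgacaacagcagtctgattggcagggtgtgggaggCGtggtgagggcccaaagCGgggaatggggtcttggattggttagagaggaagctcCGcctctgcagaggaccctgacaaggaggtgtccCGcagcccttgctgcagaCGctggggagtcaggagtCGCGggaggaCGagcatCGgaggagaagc

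Grb10 and Meg3 each have a further window that is not printed, with 9 and 1 CpG. Of the windows printed, the Grb10 window held 45 CpG, the Nnat window 17, the Meg3 and Peg3 windows 13 each, the Mirg window 10 and the Rian window 0. Over the 56 windows found for 39 of the 48 named genes, Snrpn included, the median was 15.5 CpG. Over all 32851 windows of the same length it was 7. The letters TGCCGC, the core of the methylated motif bound by ZFP57, were found on either strand in 14 of the 56 windows (25%), the printed windows of Meg3, Grb10 and Nnat among them, and in 11.6% of all windows. The further windows of Grb10 and Meg3 held no match. A match says only that the letters are there. The motif itself holds a CpG and the member windows are richer in CpG, so the shares of windows with a match were not compared at equal CpG content. Overlapping windows of Mest were counted separately.

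In the 8 pre-iPS and iPS libraries the deposited values could be turned back into whole reads, 38110410 to 46357031 of them on genes per library, so counting error is small for all but the lowest members. The MEF values were not evenly spaced and their reads were not recovered here. The labels were checked against marker lists. The 8 fibroblast markers summed to 2964450 to 3109820 in MEF and to between 0.58% and 1.11% of that level in every reprogrammed library. The 6 pluripotency markers summed to 29944 to 73770 in the iPS libraries, 14977 to 16207 in pre-iPS and 169 to 191 in MEF. The summed fibroblast signal was 17602 to 24672 in the control, 25769 to 33726 in clone 1, 21947 to 27185 in clone 2 and 18181 to 19929 in pre-iPS. The lines also split by sex-linked transcripts. The 4 Y-linked genes tested each stood at 773 to 2721 in the control and clone 1, at 0 to 7.14 in pre-iPS and clone 2 and at 77.6 to 387 in MEF. Xist stood at 144 to 317, 16029.9 to 22076 and 52735 to 52989, in the same order. Whether the lines and the sequenced MEF came from the same embryos is not given in the sources used here. The part of these differences in the results below was not tested.

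**Figure D1:**
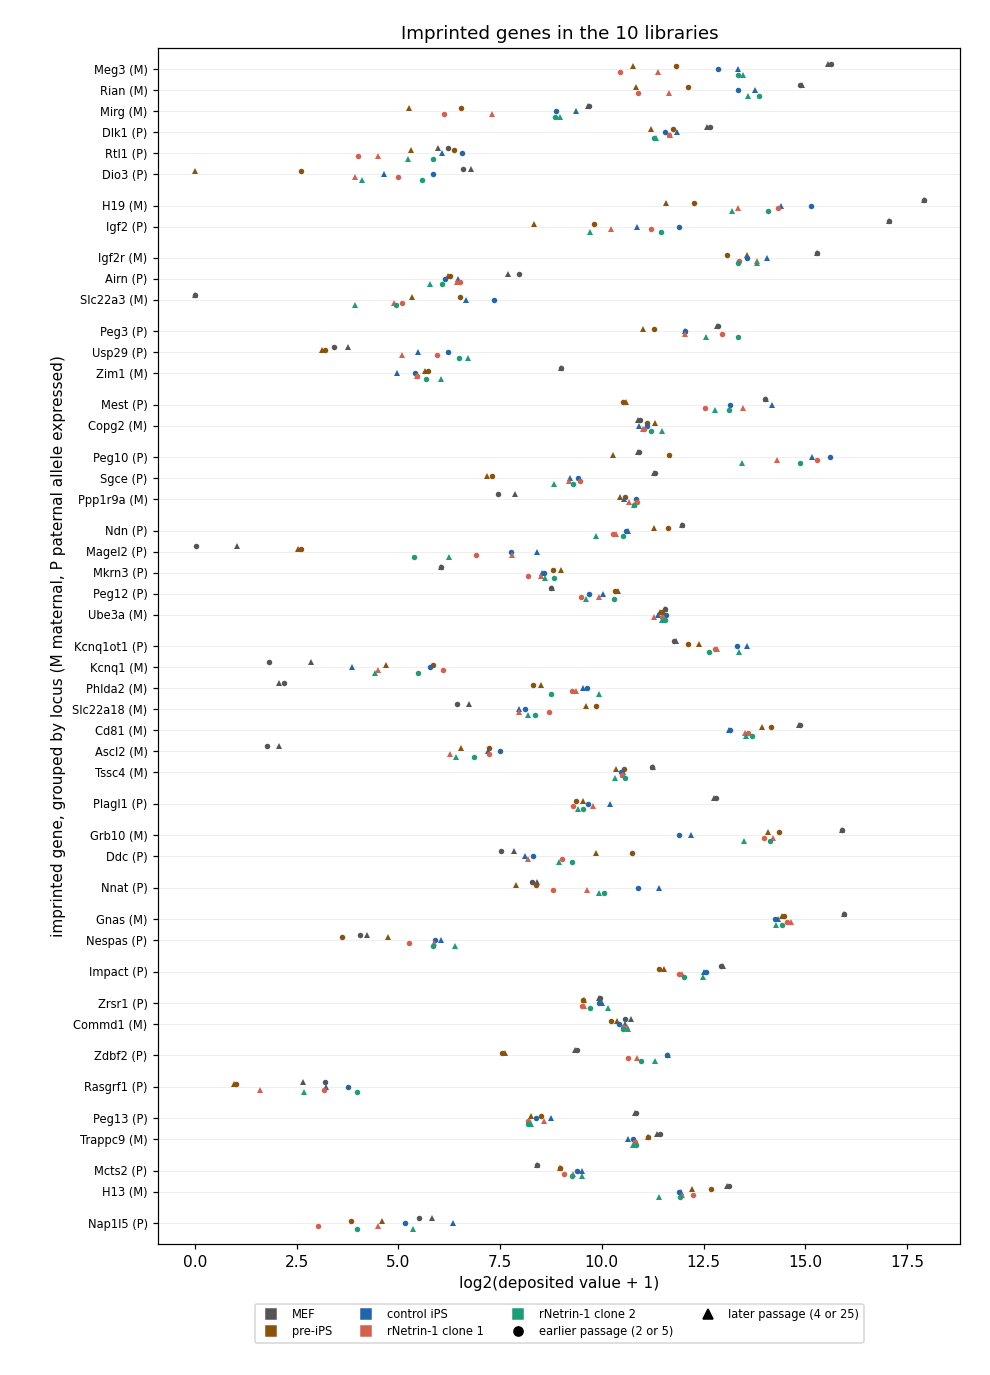
Each row is 1 of the 47 listed imprinted genes, grouped by locus and marked M or P for the allele expressed, and each point is 1 of the 10 libraries on a log2(deposited value + 1) axis, with the line as colour and the earlier or later passage as circle or triangle. The members span values from 0 to 246379 (H19 in MEF), and the 2 MEF points of a gene mostly lie on each other.

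In the lines derived with rNetrin-1, set against the control line, 3 of the 47 genes were called, 1 higher and 2 lower, where 2.11% of all tested genes were called. A gene counted as called where limma on log2(value + 1) gave an adjusted p below 0.05 (Benjamini-Hochberg) together with a log2 fold change of 1 or more in size. The shares of all genes given in the text are those of this main fit, and none is given for the alternative fits. Grb10, an adaptor that restrains insulin and IGF receptor signalling and is maternally expressed outside the brain, was higher (chr11:11930508-12038683). Its value was 3826 and 4671 at passages 5 and 25 of the control, 16151 and 18842 in clone 1 and 18054 and 11499.7 in clone 2. Each of the 4 rNetrin-1-derived libraries lay above both control libraries, and the mean was 3.8-fold that of the control (log2 fold change 1.91 ± 0.17 SE, adjusted p = 0.00173). Pre-iPS cells were at 20796 and 17431 and MEF at 61036 and 61331, so the control iPS line held the lowest Grb10 level of the 5 lines. Nnat, a small membrane proteolipid of the endoplasmic reticulum expressed from the paternal allele (chr2:157560078-157562522), stood at 1898 and 2722 in the control, 445 and 789 in clone 1 and 1069 and 975 in clone 2. These groups did not overlap and the rNetrin-1-derived mean was 35.5% of the control mean (log2 fold change -1.55 ± 0.25 SE, adjusted p = 0.0146). Slc22a3, an organic cation transporter that is maternally expressed in placenta (chr17:12418960-12507704), stood at 163 and 100.1 in the control, 32.8 and 28.7 in clone 1 and 29.8 and 14.3 in clone 2, again without overlap. The mean fell to 20.05% of the control mean (log2 fold change -2.30 ± 0.43 SE, adjusted p = 0.025). Genes called here and below were picked by these same libraries. A lack of overlap between their groups is therefore no separate support, and its share over all genes is not given.

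Over the 47 genes the median log2 fold change was -0.23, against -0.01 over all genes, with -0.40 for the 26 paternally expressed genes and -0.03 for the 21 maternally expressed ones. Zdbf2, a paternally expressed zinc finger gene, passed the adjusted p without reaching the fold (log2 fold change -0.68 ± 0.12 SE, adjusted p = 0.018). So did Cd81, a tetraspanin (log2 fold change 0.43 ± 0.08 SE, adjusted p = 0.0236). Zdbf2 stood at 3129 and 3176 in the control against 1588 and 1875 in clone 1 and 1979.6 and 2529.7 in clone 2. Passage numbers pair the libraries, and with passage as a replicate block 7 genes were called in place of 3. The added ones were H19, Magel2, Nap1l5 and Rtl1, all lower. No count over all genes with this block is set beside the 7. A fit over only the 3 iPS lines left 1, Grb10, whose adjusted p was 2.57e-19 to 0.0229 over its 21 alternatives, past the threshold in each. Nnat stayed called in 19 of 21 alternatives (adjusted p 6.85e-07 to 0.128) and Slc22a3 in 12 of 20 (1.24e-04 to 0.159), with the same direction in all of them. Without control passage 25 only 1 gene was called. The 2 clones share the control libraries, and the comparisons of the lines share 1 pooled spread.

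**Figure D2:**
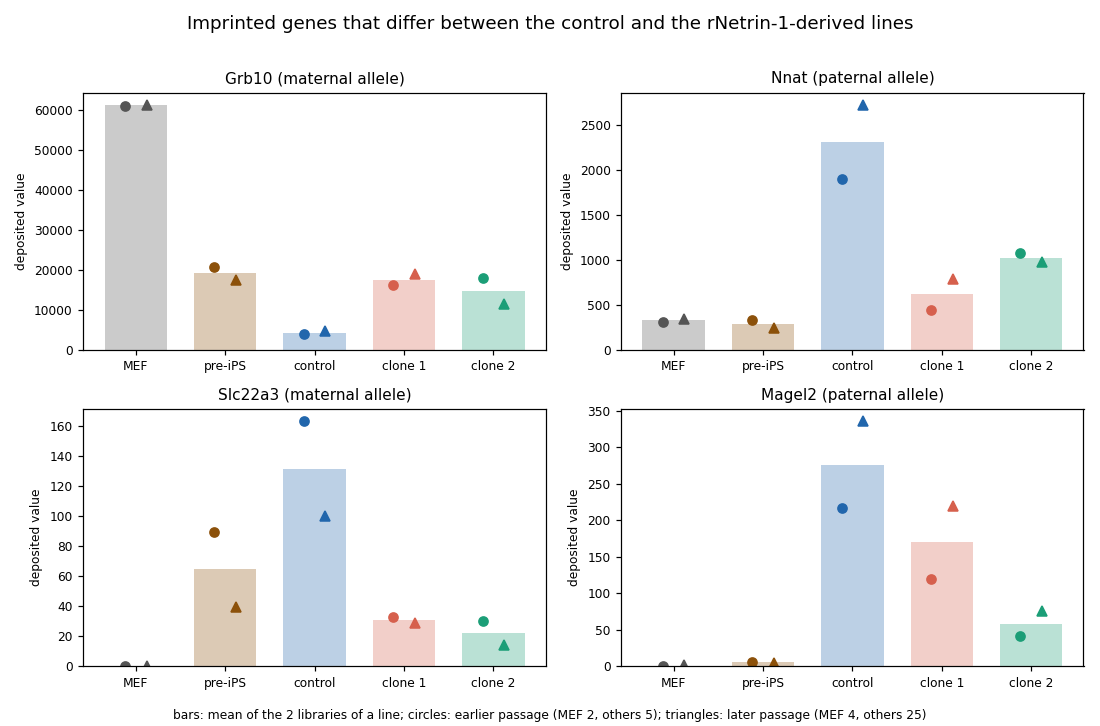
Deposited values of Grb10, Nnat, Slc22a3 and Magel2 in the 5 lines, with bars for the mean of the 2 libraries and points for the single passages, on linear axes from 0. In the control line Grb10 is at 3826 to 4671 against 11499.7 to 18842 in the rNetrin-1-derived libraries, and the other 3 genes are highest in the control.

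Taken singly, 6 genes were called for clone 1 against the control, 1 higher and 5 lower (1.41% of all genes), and 3 for clone 2, 1 higher and 2 lower (2.42%). From here on a pair of values joined by ± is a log2 fold change with its SE. Grb10 was the one higher gene in each, with 2.04 ± 0.20 (adjusted p = 0.00393) for clone 1 and 1.77 ± 0.20 (adjusted p = 0.00427) for clone 2. Slc22a3 was called for clone 2 (-2.57 ± 0.49, adjusted p = 0.0284) and gave -2.02 ± 0.49 (adjusted p = 0.0781) for clone 1. Nnat was called for clone 1 (-1.94 ± 0.29, adjusted p = 0.0181) and gave -1.15 ± 0.29 (adjusted p = 0.0651) for clone 2. Magel2, an intronless MAGE-family gene of the Prader-Willi region (chr7:62377010-62381640), was called for clone 2 (-2.26 ± 0.49, adjusted p = 0.0406). Its value was 217 and 336 in the control, 119.9 and 219.7 in clone 1 and 40.7 and 75.3 in clone 2, with the clone 2 libraries lying below the rest and those of clone 1 overlapping the control. With passage as a replicate block clone 2 had 5 genes called, H19 and Peg10 being added as lower. The 3 calls of clone 2 were 1 without either MEF library, either control library or passage 25 of clone 2, and in the fit without MEF. Magel2 stayed called in 10 of 21 alternatives (adjusted p 1.34e-04 to 0.216). Its neighbours Ndn and Mkrn3 were not called, as Ndn gave -0.43 ± 0.20 (adjusted p = 0.291) and Mkrn3 0.16 ± 0.17 (adjusted p = 0.681) for clone 2 against the control.

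The other 4 genes called for clone 1 all lie in the Dlk1-Dio3 locus, chr12:109452823-110281097, a cluster with protein-coding genes on the paternal and non-coding RNAs on the maternal allele. Meg3, the long non-coding RNA at the head of the maternal transcripts, stood at 7438 and 10322 in the control, 1397 and 2651 in clone 1 and 10360.2 and 11414 in clone 2. Rian, the host of a row of small nucleolar RNAs, stood at 10477 and 13834, 1903 and 3186 and 14788 and 12414 in the same order. Mirg, a host of microRNAs, stood at 466 and 661, 68.4 and 157 and 458 and 498. Clone 1 was thus low for all 3 maternal RNAs at both passages, with Meg3 at 22.8% and Rian at 20.9% of the control mean, while clone 2 overlapped the control or lay just above it. The log2 fold changes of clone 1 against the control were -2.19 ± 0.37 (adjusted p = 0.0266) for Meg3, -2.29 ± 0.38 (adjusted p = 0.0259) for Rian and -2.41 ± 0.46 (adjusted p = 0.0393) for Mirg. Rtl1, a retrotransposon-derived gene of the paternal allele, stood at 93.8 and 66.7 in the control, 15.1 and 21.6 in clone 1 and 56.5 and 36.7 in clone 2, and was lower in clone 1 (-2.07 ± 0.42, adjusted p = 0.0448). A maternal transcript runs antisense through Rtl1, and the library kit does not mark strand, so reads of the pair cannot be told apart.

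The other paternally expressed genes of the locus were not called between the iPS lines. Dlk1, a membrane protein of the Notch ligand family, stood at 3010.2 and 3665, 3221 and 3267 and 2503 and 2574 in the control, clone 1 and clone 2 (-0.03 ± 0.16, adjusted p = 0.945). Dio3, which inactivates thyroid hormone, stood at 57.0 and 24.0, 31.1 and 14.4 and 46.6 and 16.1 (-0.78 ± 0.87, adjusted p = 0.711). Between the clones 2 members were called, both higher in clone 2 (0.966% of all genes). These were Meg3 (2.50 ± 0.37, adjusted p = 0.0233) and Rian (2.46 ± 0.38, adjusted p = 0.0274), the levels in clone 2 being 5.38 and 5.35 times those of clone 1. Mirg gave 2.19 ± 0.46 (adjusted p = 0.0621). The maternal RNAs varied less against each other than in level, as Rian per Meg3 was 1.09 to 1.43 over the 6 iPS libraries. Dlk1 per Meg3 was 1.23 to 2.31 in clone 1 against 0.226 to 0.405 in the control and clone 2 together.

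Genes on either side of the locus that are on none of the gene lists used here were examined in the same libraries. Genes on a list, further imprinted genes included, were passed over. Wars and Wdr25 were the 2 nearest such genes of no list before Dlk1. They stood at 4596 and 4722 and 374 and 422 in clone 1 against 4722 and 5059 and 368 and 394 in the control. Ppp2r5c and B930059L03Rik, the 2 nearest past Dio3, stood at 5968 and 6072 and 7.09 and 8.21 against 5472 and 4920.4 and 9.67 and 20.9. None of these was called by limma in clone 1 against the control (adjusted p 0.222 to 0.889). The calls of the locus changed with the estimate of the spread. The 2 MEF libraries, which share in the pooled spread, differ from each other by a median of 2.43% against 8.20% to 10.7% for the other lines. In a fit without the MEF libraries, added after the values were seen, clone 1 against the control kept 1 call, Grb10, with Meg3 at an adjusted p of 0.067, and none between the clones. With passage as a replicate block over the same 8 libraries, the 4 genes of the locus were called in clone 1, Meg3 at an adjusted p of 0.0251, Rian at 0.0248, Mirg at 0.0374 and Rtl1 at 0.0284. The adjusted p of Meg3 for clone 1 was 8.17e-07 to 0.129 over its 21 alternatives, and it was called in 13 of 21. The count of 6 fell to 1 without either MEF library, either control library or passage 5 of clone 1, and to 3 without passage 25 of clone 1. The quasi-likelihood test of edgeR on the recovered reads, which leave MEF out, called 2 (Grb10 and Nnat) and DESeq2 on the same reads called 7, with the 4 genes of the locus among them (Meg3 at an adjusted p of 8.17e-07). Between the clones these tests called 0 and 4. Between the clones the 2 calls became 0 without either MEF library, either clone 1 library or passage 25 of clone 2, and 1 without passage 5 of clone 2. Beside the locus, 3 of 6 pluripotency markers were higher in clone 2 than in clone 1, Nanog (1.37 ± 0.20, adjusted p = 0.0221), Esrrb (2.35 ± 0.42, adjusted p = 0.0401) and Zfp42 (2.27 ± 0.27, adjusted p = 0.0121). The list summed to 29944 to 41847 in clone 1, 65279 to 73770 in clone 2 and 41656 to 69669 in the control. The part of this difference in the values of the locus was not tested.

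**Figure D3:**
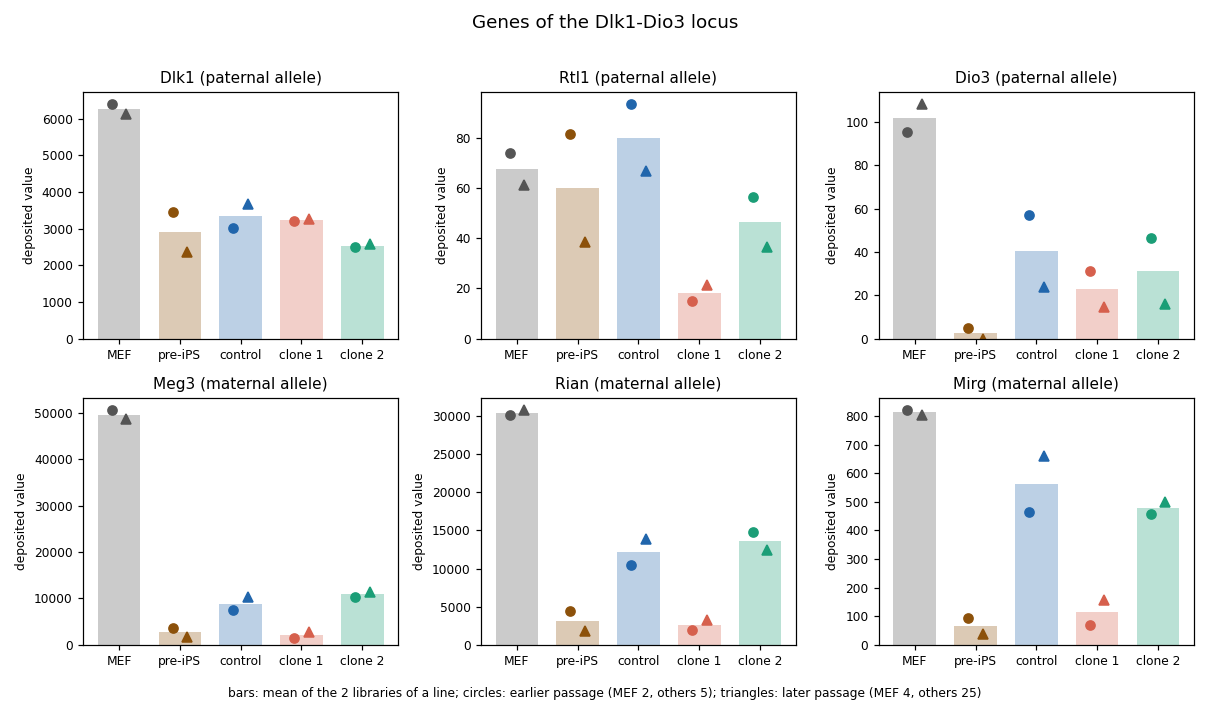
Deposited values of the paternally expressed (upper row) and maternally expressed (lower row) genes of the Dlk1-Dio3 locus, with bars for line means and points for the single libraries, on linear axes from 0. In clone 1 Meg3, Rian and Mirg lie near the pre-iPS level while in clone 2 they lie near the control, and Dlk1 is between 2360.1 and 3665 in every reprogrammed library.

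Pre-iPS cells differed from the iPS lines at 20 of the 47 imprinted genes, 3 higher and 17 lower, where 16.3% of all genes were called, 4.71% higher and 11.6% lower. Of the 26 paternally expressed genes 2 were higher and 12 lower, with a median log2 fold change of -0.80. Of the 21 maternally expressed genes 1 was higher and 5 lower, with a median of -0.00 (all genes 0.00). The genes known for imprinting in most tissues, which are the larger part of the members, held 18 of the 20 calls. Of these genes 6 of 9 maternally and 12 of 24 paternally expressed ones were called. Of those imprinted in particular tissues 0 of 12 and 2 of 2 were called. For each gene below the 2 pre-iPS values are given at passages 5 and 25, followed by the lowest, median and highest of the 6 iPS libraries.

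Among the growth and signalling genes, Igf2, the fetal growth factor, stood at 901 and 321 against 832, 2101 and 3813. H19, the non-coding RNA of the opposite allele next to it, stood at 4892 and 3049.5 against 9439, 19006 and 36142. Igf2 fell (-1.81 ± 0.54, adjusted p = 0.0277) and H19 fell (-2.17 ± 0.33, adjusted p = 0.00129), to 28.5% and 20.6% of the iPS mean. The Igf2 value at passage 5 of pre-iPS lay above the lowest iPS library. Mest, a paternally expressed enzyme of the hydrolase fold, stood at 1465 and 1543 against 5881, 8937 and 18713 and fell without overlap (-2.65 ± 0.29, adjusted p = 2.52e-04). Rasgrf1, an exchange factor for Ras, stood at 1.02 and 0.957 against 2.06, 8.16 and 14.9, which is 1 read in each pre-iPS library (-2.08 ± 0.51, adjusted p = 0.0123). Its fold depends on the 1 added to each value and ran from -3.04 to -0.72 over the alternatives. Phlda2, a maternally expressed gene that restrains placental growth, was at the edge of the fold threshold, with 318 and 364 against 432, 701 and 974 (-1.0003 ± 0.27, adjusted p = 0.0177).

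The retrotransposon-derived gene Peg10, needed for the placenta, stood at 3186 and 1242 against 11204, 33290.0 and 49574 and was at 7.08% of the iPS mean (-3.82 ± 0.45, adjusted p = 3.28e-04). Sgce, the sarcoglycan gene that lies head to head with Peg10, stood at 156 and 143 against 455, 608 and 709 (-2.002 ± 0.14, adjusted p = 2.46e-05). Ppp1r9a in the same locus, maternally expressed in some tissues, gave -0.24 ± 0.13 (adjusted p = 0.186). Of this locus the paternally expressed genes were lower and the maternally expressed one was not called. Peg3, a zinc finger gene, stood at 2483 and 2073 against 4210.5, 5116 and 10349 (-1.35 ± 0.25, adjusted p = 0.00338). Usp29, a deubiquitinase gene read from the same region in the other direction, stood at 8.16 and 7.68 against 32.8, 67.4 and 104 (-2.84 ± 0.32, adjusted p = 2.63e-04). Zdbf2 had the smallest error of the called members, at 185 and 195 against 1588, 2255 and 3176 (-3.59 ± 0.11, adjusted p = 1.11e-06). Nnat stood at 332 and 234 against 445, 1022 and 2722 (-1.99 ± 0.23, adjusted p = 3.44e-04), the passage 5 value of clone 1 being the iPS library closest to pre-iPS. Nespas, the antisense RNA of the Gnas cluster, stood at 11.2 and 25.9 against 37.3, 58.2 and 82.4 (-1.70 ± 0.34, adjusted p = 0.00505). Gnas itself, the stimulatory G protein subunit, gave 0.02 ± 0.06 (adjusted p = 0.806).

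Within the Prader-Willi region the members went apart. Magel2 stood at 5.1 and 4.8 against 40.7, 168 and 336, with 5 reads in each pre-iPS library, 2.95% of the iPS mean (-4.51 ± 0.40, adjusted p = 7.24e-05). Ndn, another MAGE-family gene close by, was higher, at 3165 and 2491 against 925, 1382 and 1595 (1.09 ± 0.16, adjusted p = 0.0011), and no library of one group reached the other. Mkrn3 and Peg12, also paternally expressed, gave 0.36 ± 0.14 (adjusted p = 0.0749) and 0.52 ± 0.19 (adjusted p = 0.0591), and Ube3a, the ubiquitin ligase that is maternal in neurons, -0.00 ± 0.08 (adjusted p = 0.986). The other 2 higher genes were Ddc, the aromatic amino acid decarboxylase next to Grb10, at 1699 and 923 against 273, 407 and 618 (1.65 ± 0.28, adjusted p = 0.00206), and Slc22a18. This transporter gene of the Kcnq1 locus stood at 933 and 786 against 247, 283 and 416 (1.53 ± 0.20, adjusted p = 6.63e-04). Grb10 was 0.90 ± 0.16 (adjusted p = 0.0031) against the 3 iPS lines together, a mean to which the low control line contributes.

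In the Dlk1-Dio3 locus 4 of 6 genes were lower in pre-iPS cells. Meg3 stood at 3643 and 1736 against 1397, 8879.8 and 11414 (-1.18 ± 0.30, adjusted p = 0.015). Rian stood at 4416 and 1819.5 against 1903, 11446 and 14788 (-1.38 ± 0.31, adjusted p = 0.00861). Mirg stood at 91.8 and 37.4 against 68.4, 462 and 661 (-2.34 ± 0.38, adjusted p = 0.00168). Both Meg3 values lay within the iPS range, as did the passage 5 values of Rian and Mirg, and the low end of each range is clone 1. Dio3 stood at 5.1 and 0 against 14.4, 27.5 and 57.0, which is 5 reads and 0 reads in pre-iPS (-3.55 ± 0.71, adjusted p = 0.00488). Its fold depends on the 1 added to each value. Dlk1 (-0.08 ± 0.13, adjusted p = 0.667) and Rtl1 (0.46 ± 0.34, adjusted p = 0.312) were not called. Leaving out 1 pre-iPS library at a time left 16 calls and the alternatives as a whole gave 16 to 28, with no change of direction in any of the 20 genes. Igf2, Rasgrf1 and Phlda2 were the ones most often lost, kept in 16 of 21, 16 of 20 and 14 of 21 alternatives (adjusted p 1.12e-04 to 0.247, 0.00503 to 0.34 and 6.73e-04 to 0.122).

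The pre-iPS line also differed in the marker lists, and their part in the imprinted genes was not tested. Of the pluripotency markers 5 of 6 were lower, from Tdgf1 (-1.39 ± 0.26, adjusted p = 0.00361) through Dppa5a, Nanog and Dppa4 to Esrrb (-6.78 ± 0.35, adjusted p = 4.28e-06). Of the primitive endoderm markers Sox17, Sox7 and Foxa2 were lower, their list summing to 395 to 471 against 525 to 1504 in the iPS libraries. Of the trophoblast markers Gcm1 and Hand1 were lower and Elf5 higher, with a sum of 891 to 1293 against 355 to 1052. Of the 3 neural markers tested Tubb3 was lower, with a list sum of 3142 to 3431 against 2862 to 4737. Of the 5 macrophage markers Ptprc was higher, with a sum of 892 to 1657 against 432 to 1268.

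**Figure D4:**
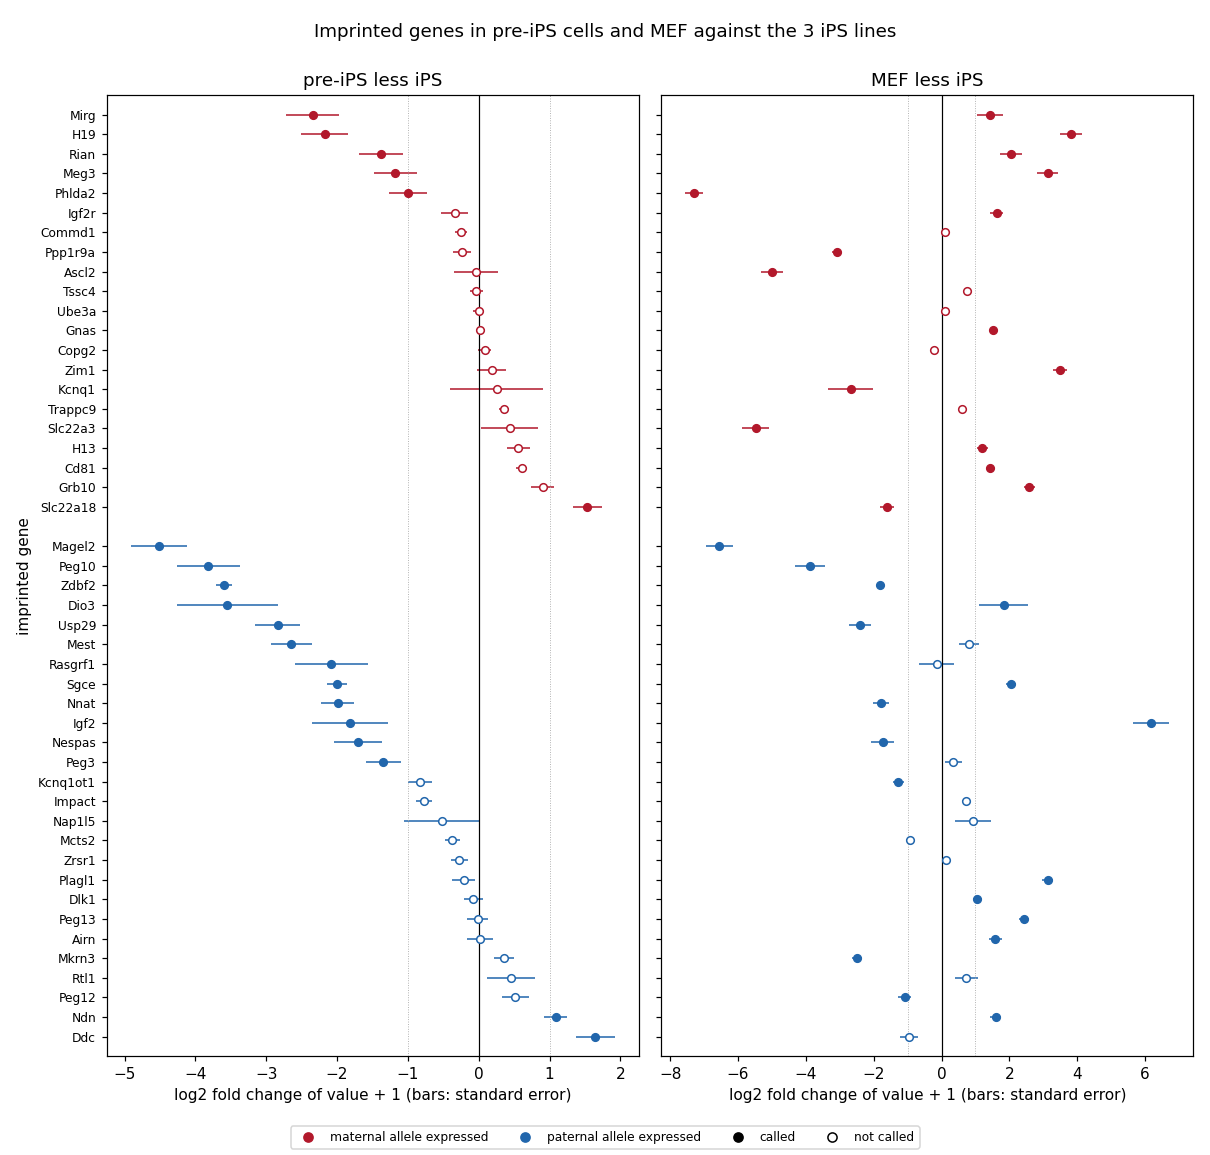
Log2 fold changes of value + 1, with standard errors as bars, of the 47 imprinted genes in pre-iPS cells (left) and MEF (right) against the 3 iPS lines, in red for maternally and blue for paternally expressed genes, filled where called, with dotted lines at a fold change of 1 on the log2 scale. On the left 12 of 26 paternally expressed genes are filled below 0 and 2 above, and on the right filled points lie on both sides, 15 below and 18 above.

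MEF differed from the iPS lines at 33 of the 47 genes, 18 higher and 15 lower, where 48.2% of all genes were called, 21.6% higher and 26.6% lower. Of the maternally expressed genes 10 were higher and 6 lower, and of the paternally expressed ones 8 were higher and 9 lower. The median log2 fold change was 0.61 over the members and -0.09 over all genes, and under quantile normalization the member median was 0.38. At Dlk1-Dio3 5 of 6 genes and at Igf2-H19 both genes were higher, and the Kcnq1 locus was mostly lower, with 5 of 7 genes lower and 1 higher.

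Igf2 stood at 137012 and 137153 in MEF at passages 2 and 4, and the iPS mean was 1.56% of that (6.18 ± 0.54, adjusted p = 7.60e-06). H19 stood at 246379 and 246012 against an iPS mean of 7.84% (3.82 ± 0.33, adjusted p = 7.27e-06). MEF expressed 1.794 to 1.798 H19 per Igf2, the reprogrammed libraries 5.43 to 11.8. The iPS libraries stood at 0.61% to 2.78% of the MEF level for Igf2 and at 3.83% to 14.7% for H19. In the reprogrammed libraries the summed fibroblast markers stood at 0.58% to 1.11%, and single markers ranged from 0.0516% (Lum) to 11.1% (Thy1). The part of any irradiated MEF under the cells in these values was not tested. Meg3 stood at 50656 and 48572 (3.13 ± 0.30, adjusted p = 1.42e-05) and Rian at 30099 and 30850.5 (2.05 ± 0.31, adjusted p = 2.82e-04), with 0.594 to 0.635 Rian per Meg3 in MEF. Dio3 stood at 95.3 and 109 (1.83 ± 0.71, adjusted p = 0.0403), and Mirg (1.43 ± 0.38, adjusted p = 0.00712) and Dlk1 (1.06 ± 0.13, adjusted p = 8.13e-05) were higher too.

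Other genes higher in MEF included Zim1, a maternally expressed zinc finger gene of the Peg3 locus, at 510.3 and 509.8 against 30.2, 42.9 and 65.4 for the lowest, median and highest iPS library (3.49 ± 0.20, adjusted p = 6.03e-07). Plagl1, a zinc finger regulator of other imprinted genes, stood at 7163 and 6939.9 against 626, 781 and 1172 (3.13 ± 0.16, adjusted p = 3.28e-07). Grb10 stood at 61036 and 61331 against 3826, 13825 and 18842 (2.58 ± 0.16, adjusted p = 1.03e-06). The non-coding RNA Peg13 stood at 1833 and 1801 against 291, 320.1 and 428 (2.43 ± 0.15, adjusted p = 7.53e-07). Sgce stood at 2510.4 and 2472 against 455, 608 and 709 (2.05 ± 0.14, adjusted p = 1.90e-06). Sgce and Peg10, both paternally expressed and head to head, went opposite ways. Peg10 was lower in MEF, at 1936 and 1898 against 11204, 33290.0 and 49574 (-3.87 ± 0.45, adjusted p = 4.51e-05). Peg10 per Sgce was 0.768 to 0.771 in MEF, 8.68 to 20.4 in pre-iPS and 24.6 to 72.5 in the iPS libraries. Igf2r, the receptor that clears IGF2, was higher in MEF (1.62 ± 0.19, adjusted p = 5.37e-05). So was Airn, the paternal antisense RNA that silences it (1.59 ± 0.19, adjusted p = 5.01e-05). The 2 genes overlap on opposite strands and share the limit given for Rtl1. Igf2r per Airn was 162 to 192 in MEF and 117 to 267 in the iPS libraries. Ndn (1.60 ± 0.16, adjusted p = 1.82e-05) and Cd81 (1.42 ± 0.07, adjusted p = 3.57e-07) were higher as well. Rtl1, Peg3, Mest and Nap1l5 were not called, Mest with 0.81 ± 0.29 (adjusted p = 0.0301).

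The genes lower in MEF included placental and neural members with MEF values near 0. Phlda2 stood at 3.55 and 3.18 in MEF against 432, 701 and 974 in the iPS libraries (-7.29 ± 0.27, adjusted p = 5.59e-08). Ascl2, a regulator of trophoblast, stood at 2.42 and 3.16 against 76.0, 131 and 179 (-5.00 ± 0.32, adjusted p = 1.03e-06). Magel2 stood at 0.0226 and 1.05 against 40.7, 168 and 336, and Slc22a3 was listed at 0 in both MEF libraries against 14.3, 31.3 and 163. No fold is given for these last 2, and those of Phlda2, Ascl2 and Kcnq1 (2.53 and 6.29 in MEF against 13.6, 32.6 and 67.5) depend on the 1 added to each value. Ppp1r9a, the neuronal scaffold neurabin, stood at 173 and 233 against 1491, 1760.3 and 1862 (-3.09 ± 0.13, adjusted p = 1.19e-07). Mkrn3, a ring finger gene of the Prader-Willi region, stood at 65.1 and 65.4 against 291, 375 and 455 (-2.49 ± 0.14, adjusted p = 5.49e-07) and Usp29 at 9.62 and 12.6 against 32.8, 67.4 and 104 (-2.40 ± 0.32, adjusted p = 1.09e-04). Zdbf2 at 664 and 649 (-1.81 ± 0.11, adjusted p = 7.87e-07), Nnat (-1.78 ± 0.23, adjusted p = 1.11e-04) and Nespas (-1.74 ± 0.34, adjusted p = 0.00139) were lower. Slc22a18 (-1.62 ± 0.20, adjusted p = 8.33e-05), Kcnq1ot1, the paternal non-coding RNA of the Kcnq1 locus (-1.28 ± 0.17, adjusted p = 1.11e-04), and Peg12 (-1.09 ± 0.19, adjusted p = 6.30e-04) completed the 15. Macrophage markers were also higher in MEF, 4 of 5 of them called, with Lyz2 at 6824 and 6951, and their part in the MEF values was not tested.

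Against MEF, pre-iPS cells had 10 genes higher and 20 lower of 47, where 43.2% of all genes were called, 22.4% higher and 20.9% lower. The lower genes again included 5 of 6 at Dlk1-Dio3, with Meg3 at -4.30 ± 0.37 (adjusted p = 1.04e-05) and Dio3 at -5.38 ± 0.87 (adjusted p = 5.29e-04). Both genes at Igf2-H19 were lower, Igf2 at 0.446% and H19 at 1.61% of the MEF mean. Mirg (-3.77 ± 0.46, adjusted p = 9.59e-05) and Rian (-3.43 ± 0.38, adjusted p = 5.33e-05) were lower as well. The fold of Dio3, like those of Rasgrf1 and Magel2 in this comparison, depends on the 1 added to each value. Among the other lower genes were Sgce (-4.05 ± 0.18, adjusted p = 2.24e-07), Mest (-3.46 ± 0.36, adjusted p = 3.43e-05), Plagl1, at 654 and 736 (-3.34 ± 0.20, adjusted p = 1.24e-06), and Zim1, at 52.0 and 49.0 (-3.31 ± 0.25, adjusted p = 4.46e-06). The genes higher in pre-iPS than in MEF were Phlda2 (6.29 ± 0.33, adjusted p = 5.74e-07), Slc22a3, at 89.8 and 39.4 where MEF is listed at 0, Ascl2, at 148 and 91.2 (4.96 ± 0.39, adjusted p = 6.01e-06), and Slc22a18 (3.15 ± 0.25, adjusted p = 6.67e-06). They also included Kcnq1, at 57.1 and 25.0 (2.94 ± 0.81, adjusted p = 0.01), Ppp1r9a, at 1523 and 1390.3 (2.85 ± 0.16, adjusted p = 9.57e-07), Mkrn3, at 442 and 512 (2.85 ± 0.17, adjusted p = 1.38e-06), and Ddc (2.61 ± 0.34, adjusted p = 1.35e-04). Magel2, with values near 0 in both lines, and Peg12 (1.61 ± 0.23, adjusted p = 2.61e-04) completed the 10. Peg10 (0.05 ± 0.55, adjusted p = 0.941), Nnat (-0.22 ± 0.29, adjusted p = 0.523) and Usp29 (-0.43 ± 0.39, adjusted p = 0.344) were not called between pre-iPS and MEF, although each was higher in the iPS lines than in either. This comparison shares libraries with the comparisons above.

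From passage 5 to passage 25, with the line as a block over the 8 pre-iPS and iPS libraries, 5 of the 47 genes were called, 1 higher and 4 lower (1.69% of all genes). Igf2, given at passages 5 and 25, stood at 901 and 321 in pre-iPS, 3813 and 1854 in the control, 2347 and 1189.7 in clone 1 and 2806 and 832 in clone 2 (-1.31 ± 0.13, adjusted p = 0.00313). Peg10 stood at 3186 and 1242 in pre-iPS, 49574 and 36895 in the control, 40056 and 20234 in clone 1 and 29685 and 11204 in clone 2 (-1.04 ± 0.15, adjusted p = 0.00921). Both fell in each of the 4 lines. Dio3 fell in each line too (-1.59 ± 0.32, adjusted p = 0.0253), at 5.1 and 0 in pre-iPS, 57.0 and 24.0 in the control, 31.1 and 14.4 in clone 1 and 46.6 and 16.1 in clone 2. Kcnq1, a potassium channel gene, fell in each line as well, at 57.1 and 25.0 in pre-iPS, 54.1 and 13.6 in the control, 67.5 and 21.6 in clone 1 and 43.6 and 20.6 in clone 2 (-1.43 ± 0.23, adjusted p = 0.0127). Nap1l5, a nucleosome assembly gene, rose, at 13.3 and 23.0 in pre-iPS, 34.8 and 80.3 in the control, 7.09 and 21.6 in clone 1 and 14.9 and 40.3 in clone 2 (1.20 ± 0.23, adjusted p = 0.0224). H19 passed the adjusted p with a smaller fold and fell in each line (-0.82 ± 0.06, adjusted p = 0.00129), and Igf2r rose in each (0.47 ± 0.04, adjusted p = 0.00244). The maternal RNAs of Dlk1-Dio3 moved up in some lines and down in others, with Meg3 at 0.12 ± 0.28 (adjusted p = 0.814). Members not called with passage also moved the same way in all 4 lines, among them Ube3a, Cd81, Ppp1r9a, Commd1 and Zrsr1. A test with the line as a block favours genes that move alike, so this agreement is no separate support for the called genes.

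Beside these, 2 of 5 trophoblast markers, Hand1 (-1.40 ± 0.23, adjusted p = 0.0134) and Eomes (-1.02 ± 0.15, adjusted p = 0.00974), were lower at passage 25. So were 2 of 5 macrophage markers, Csf1r (-1.48 ± 0.18, adjusted p = 0.00515) and Cd68 (-1.07 ± 0.12, adjusted p = 0.00472). From passage 5 to 25 the trophoblast list was in sum lower at passage 25 in each line, going from 1293 to 891 in pre-iPS, 1052 to 634 in the control, 788 to 484 in clone 1 and 707 to 355 in clone 2. The macrophage list went from 1657 to 892, 1023 to 432, 1268 to 471 and 1232 to 715 in the same order. The fibroblast list went from 19929 to 18181, 17602 to 24672, 33726 to 25769 and 27185 to 21947. The part of the cells that carry these markers in the passage differences was not tested. The count of 5 was 0 without the line in the model, 2 among genes with a mean of at least 50, and 1 without either pre-iPS library or either clone 1 library and 2 without either clone 2 library. Igf2 stayed called in 18 of 19 alternatives (adjusted p 5.74e-18 to 0.534). Kcnq1 stayed called in 13 of 18 (up to 0.155), Dio3 in 11 of 18 (up to 0.762), Peg10 in 11 of 19 (up to 0.905) and Nap1l5 in 9 of 18 (up to 0.548).

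**Figure D5:**
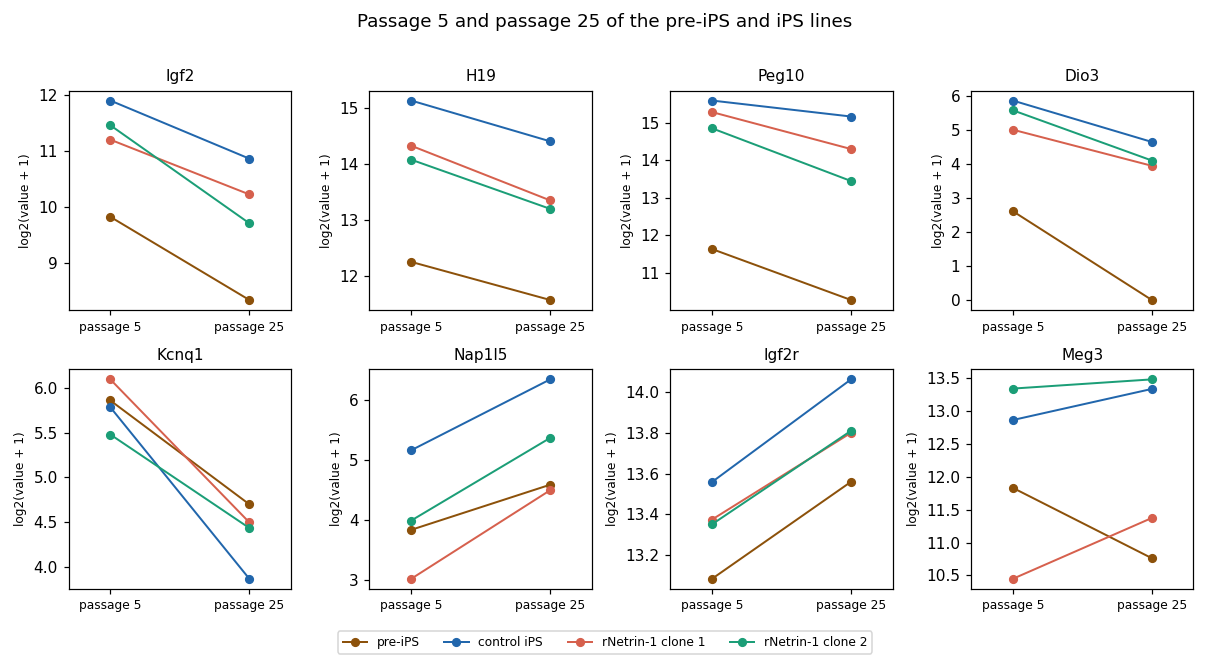
Log2(deposited value + 1) at passages 5 and 25 of the 4 reprogrammed lines for the 5 imprinted genes called with passage (Igf2, Peg10, Dio3, Kcnq1 and Nap1l5) and for H19, Igf2r and Meg3, with 1 line of points per cell line and an axis range of its own in each panel. Igf2, H19, Peg10, Dio3 and Kcnq1 slope down and Nap1l5 and Igf2r slope up in all 4 lines, and Meg3 goes up in 3 and down in pre-iPS. Uncalled members that are not drawn, such as Ube3a and Commd1, also moved the same way in all 4 lines.

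Of the 10 factors that protect or copy imprints (Zfp57, Zfp445, Trim28, Setdb1, Dppa3, Dnmt1, Uhrf1, Ctcf, Smchd1 and Hells), none was called between the iPS lines by limma in any of the 4 comparisons. In these comparisons limma called 0.966% to 2.42% of all genes, so 0 of 10 is near the share of all genes. At an unadjusted p under 0.05 the counts were 3, 5, 1 and 4, with no share of all genes given beside them. The tests of edgeR and DESeq2 called 0 in each. In pre-iPS cells 2 of the 10 were lower than in the iPS lines, where 11.6% of all genes were, Dppa3 at 8.16 and 4.8 against 436, 1027 and 1646 (-7.11 ± 0.41, adjusted p = 7.77e-06) and Hells at 3416 and 3194 against 5737, 7945 and 9846 (-1.24 ± 0.11, adjusted p = 6.36e-05). Dppa3 shields methylated imprints in the early embryo and Hells is a chromatin remodeller that helps DNA methylation. Zfp57, which binds methylated imprints, stood at 7869 and 9235 in pre-iPS, 4567 and 3697 in the control, 5235 and 5427 in clone 1 and 7129 and 7827 in clone 2. Its partner Trim28 stood in the same order at 22984 and 22293, 57801 and 46388, 42053 and 34295 and 48909.9 and 41193. Neither Zfp57 nor Trim28 was called between the iPS lines or between pre-iPS and the iPS lines. Against the iPS lines 6 of the 10 were lower in MEF, where 26.6% of all genes were, among them Dnmt1, the copying methyltransferase (-1.33 ± 0.13, adjusted p = 1.40e-05), Uhrf1, its recruiter (-2.16 ± 0.07, adjusted p = 3.56e-08), and Zfp57 (-1.53 ± 0.10, adjusted p = 1.10e-06).

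Commd1, Copg2, Trappc9, Tssc4, Ube3a and Zrsr1 were called in no comparison at all and stayed between 729.9 (Zrsr1) and 3044 (Ube3a) in all 10 libraries. Mcts2 was called in none either, and Impact was called in pre-iPS against MEF alone (-1.48 ± 0.14, adjusted p = 1.60e-05). Against the iPS lines, MEF passed the adjusted p without the fold at Impact (0.71 ± 0.11, adjusted p = 3.33e-04) and Mcts2 (-0.93 ± 0.11, adjusted p = 5.65e-05). It also did so at Trappc9 (0.61 ± 0.07, adjusted p = 2.85e-05), Tssc4 (0.76 ± 0.09, adjusted p = 5.30e-05) and Ddc (-0.96 ± 0.28, adjusted p = 0.0106). Pre-iPS cells against the iPS lines did so at Trappc9 (0.36 ± 0.07, adjusted p = 0.00325) and Commd1 (-0.25 ± 0.09, adjusted p = 0.0459). H13, the signal peptide peptidase gene that contains Mcts2, was higher in MEF (1.20 ± 0.16, adjusted p = 1.21e-04), as was Gnas (1.52 ± 0.06, adjusted p = 1.14e-07). Per kilobase of exon, the mean value of the iPS libraries was highest for H19 (7850.3), Peg10 (4691) and Cd81 (3885), and that of MEF for H19 (100079), Igf2 (23953) and Cd81 (10294). Members that overlap a gene on the other strand or inside an intron share the limit given for Rtl1. They include Igf2r and Airn, Kcnq1 and Kcnq1ot1, Gnas and Nespas, Trappc9 and Peg13, Commd1 and Zrsr1, and H13 and Mcts2.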

How the data were processed

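Per the labels and the study's methods, poly(A) RNA was sequenced with a TruSeq RNA v2 kit, which does not mark strand, and the submitters' processing notes name CASAVA 1.8.2, FastQC, TopHat2 2.0.8b, HTSeq 0.5.3p9, edgeR and the mm10 build. The annotation used for counting is not given in the sources used here. The authors deposited 1 table of edgeR pseudo-counts per gene and library, a normalised signal that is scaled to a common library size and is not whole numbers. Values below 1e-10 were set to 0. The spacing of the values gave back whole reads in 8 libraries (100% of values within 0.01 of a whole number), and those reads, the counts behind the deposited signal, were used only for the alternatives with edgeR 4.0.16 and DESeq2 1.42.0.

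A gene entered the test where 2 or more libraries reached a value of 10. The test was limma 3.58.1 (R 4.3.3, trended eBayes) on log2(value + 1), with 1 mean per line over all 10 libraries. Passage was tested over 8 libraries with the line as a block. A fold change on this scale understates the change of low genes. P-values were adjusted by Benjamini and Hochberg over all genes tested. The members and the lists were chosen with earlier results of these data known. The text names members called between the iPS lines or between pre-iPS and iPS with their values. For each comparison with MEF it names the 10 members of largest fold in each direction with values. It also names genes of the lists called between iPS lines or in pre-iPS. On each side of Dlk1-Dio3 it names the 2 nearest genes that are on no list. Other members named in the MEF comparisons, by fold alone, and list genes named for MEF or passage were chosen after their values were seen. Zfp57 and Trim28, given for the reprogrammed lines, are list genes outside this rule too. Libraries of the same passage number deviated together in all 6 pairs of lines (correlations 0.235 to 0.504), so the numbers pair the libraries. Coordinates are from GENCODE M21 on GRCm38, which matched 98.8% of the symbols. Another normalization, filter and pseudocount, the replicate block, other tests and leaving out each library were the alternatives.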

Additional observations from a re-analysis of the deposited data

Results flagged for a closer look

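The difference between the rNetrin-1-derived clones passed the test at Meg3 (log2 fold change of clone 2 less clone 1 2.50 ± 0.37 SE, adjusted p = 0.0233) and at Rian (2.46 ± 0.38 SE, adjusted p = 0.0274), although both were derived with the same molecule. Both passages of clone 2 lay above both of clone 1 for each gene, which is no support apart from the test on the same libraries. Over the alternatives the adjusted p ran from 1.49e-08 to 0.158 for Meg3, called in 13 of 21, and from 3.60e-08 to 0.152 for Rian, called in 12 of 21, with clone 2 higher in every one. The clones also differ in the Y-linked genes, 773 to 2721 in the control and clone 1 against 0 to 7.14 in pre-iPS and clone 2, and in 3 pluripotency markers, and with 1 line a clone these differences cannot be told apart.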

How the results depend on the processing

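Of 158 alternative counts of imprinted genes called, 117 were within 1.5 times the reported count. These are counts of imprinted genes alone, and no count over all genes is given for the alternatives. Over 1862 alternative values of single called genes none changed direction and 167 were no longer called. These genes were picked by their fold in the same data. The alternative by adjusted p alone is the main fit without the fold limit. A called gene therefore stays called there by construction, and it counts as kept in each tally of alternatives above. Pre-iPS against iPS (16 to 28 called), MEF against iPS (28 to 39) and pre-iPS against MEF (26 to 39) stayed within that limit under each alternative run. For the rNetrin-1-derived lines against the control the count of 3 became 5 by adjusted p alone, 1 in a fit over only the lines compared, 7 with passage as a replicate block and 7 by DESeq2, and leaving out 1 library gave 1 to 4. For clone 1 the count of 6 became 0 over only the lines compared (15 at an unadjusted p under 0.05), 1 without the MEF libraries (chosen after seeing the data) and 2 by edgeR, and leaving out 1 library gave 1 to 6. For clone 2 the count of 3 became 0 over only the lines compared (11 unadjusted), 5 with the replicate block and 1 without MEF, with 1 to 4 when 1 library was left out. For clone 2 against clone 1 the count of 2 became 0 over only the lines compared (8 unadjusted), 0 without MEF (11), 0 by edgeR (11) and 4 by DESeq2, with 0 to 3 when 1 library was left out. For passage the count of 5 became 2 with a mean of at least 50, 8 by adjusted p alone and 0 with no replicate block, the line being left out of the model (2 unadjusted), with 1 to 5 when 1 library was left out. The causes were not tested. A line left with 1 library is assumed to vary like the others. The replicate block moved the counts of clone 1 (8), clone 2 against clone 1 (3) and pre-iPS (20) by at most 1.5 times, and MEF has other passage numbers, so no such block was fitted there. Depth limits only members of a few reads, such as Dio3 and Rasgrf1 in pre-iPS.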

Other observations

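A further list of 20 imprinted genes outside the 48 was looked at in the same fits. Between the iPS lines, Ampd3, an AMP deaminase gene, stood at 1461 and 912 in the control and 3046 and 2544 in clone 1 (log2 fold change 1.27 ± 0.22 SE, adjusted p = 0.0288). Gab1, a docking protein of receptor tyrosine kinases, stood at 7225 and 5867 in the control, 3313 and 2639 in clone 1 and 5388 and 8379 in clone 2, lower in clone 1 than in the control (log2 fold change -1.14 ± 0.20 SE, adjusted p = 0.0305) and than in clone 2 (log2 fold change 1.18 ± 0.20 SE, adjusted p = 0.0343 for clone 2 less clone 1). Calcr, the calcitonin receptor gene, stood at 37.7 and 36.5 in the control and 4.96 and 8.95 in clone 2 (log2 fold change -2.31 ± 0.45 SE, adjusted p = 0.0306). On the recovered reads edgeR called 0 of the 20 in clone 1 against the control and 0 in clone 2 against clone 1, where limma and DESeq2 each called 2 and 1. In clone 2 against the control the 3 tests each called 1. Of all genes limma called 1.41% in clone 1 and 2.42% in clone 2 against the control, and 0.966% between the clones. With both clones together limma called none of the 20 against the control, where 2.11% of all genes were called. At an unadjusted p under 0.05 there were 8, and edgeR and DESeq2 called 0.

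In pre-iPS cells 9 of the 20 were called against the iPS lines, 3 higher and 6 lower, where 16.3% of all genes were called. Slc38a4, an amino acid transporter gene, stood at 865 and 1026 in pre-iPS and at 4867, 5811 and 6897 for the lowest, median and highest iPS library (log2 fold change -2.62 ± 0.12 SE, adjusted p = 3.48e-06). Asb4 (-3.99), Calcr (-3.85), Gab1 (-2.35), Sfmbt2, a Polycomb group gene (-1.98), and Phf17 (-1.27) were lower too, and Th, tyrosine hydroxylase (1.75), Ampd3 (1.29) and Cobl (1.16) were higher, all as log2 fold changes with an adjusted p of at most 0.0105. MEF had 8 of the 20 higher and 7 lower than the iPS lines, against 21.6% and 26.6% of all genes. Pre-iPS had 3 higher and 9 lower than MEF, against 22.4% and 20.9%. Several of these genes are known for imprinting in the placenta, and their allele of origin was not measured here.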
